A study of Mus musculus with 20 samples.

Results

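The libraries titled LI_1 and LI_2 were 2 of the 20 bulk RNA-seq libraries of a mouse study of intraepithelial lymphocytes (IELs), and they were chosen by that title. They were set against the 3 libraries of RFP+CD160+ CD8αα+ αβ IELs (RFP+) from the small intestine. The 3 libraries of RFP−CD160− CD8αα+ αβ IELs (RFP−) served only to show where LI lay relative to the sorted states. All 8 libraries carry the genotype label Bcl6-RFP/RFP, a reporter in which red fluorescent protein (RFP) marks cells that use the Bcl6 gene, and the RFP+ and RFP− cells came from mice at steady state with no treatment. The labels give small intestine as the tissue of the LI libraries too, but they state neither what LI stands for, nor its sort gate, nor the age or sex of any mouse. They do not say that replicates were separate mice, so the p-values below measure only the spread between libraries. Libraries were made by BGI Genomics or Novogene, and which company made which library is not stated. Sort gate, tissue region, provider and time of preparation therefore cannot be told apart as sources of a difference between LI and RFP+.

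CD8αα+ αβ IELs are T cells that leave the thymus, settle between the epithelial cells of the gut and carry CD8α homodimers in place of the CD8αβ coreceptor. BCL6 and TCF1, the product of Tcf7, are transcription factors of less differentiated T cells, while BLIMP1, the product of Prdm1, goes with the cytotoxic effector state. T cells find their segment of gut through homing receptors: CCR9 binds a chemokine of small intestinal epithelium, GPR15 is known for T cell homing to the large intestine, the integrin αE (Itgae) holds lymphocytes to epithelial E-cadherin, and S1PR1, under the control of KLF2, leads T cells out of tissue.

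Values were deposited as FPKM, reads scaled to gene length and sequencing depth, for 12975 genes. Whole reads could be recovered from the low values, which put the depth at 28405640 and 21321711 reads in LI, 14004742, 13505356 and 16004992 in RFP+ and 16240136 to 16845174 in RFP−. LI was thus sequenced more deeply. The LI libraries differed from each other by more than sampling noise (mean chi-square of 2.07 per gene, where counting error alone gives a value near 1), so they were treated as separate libraries. Fold changes are log2 fold changes, LI over RFP+, on the log2(FPKM + 1) scale, with limma's standard error (SE) and its Benjamini-Hochberg adjusted p over the 9830 genes that reached 1 FPKM in at least 2 of the 5 libraries. A gene is called at an adjusted p under 0.05. Over all 9830 genes 15.4% were called higher in LI and 14.4% lower, and the count of each list is to be read against these shares. Of the 9830 genes, 142 passed the filter only through LI, with every RFP+ library under 1 FPKM, and 116 only through RFP+. The filter alone put both LI libraries above RFP+ for the first kind, and at least 2 RFP+ libraries above LI for the second. For this reason any p given for the call of such a gene is from the fit with no filter (12973 genes), and its list is also counted without it.

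Some markers of gut region differed between LI and RFP+, though the labels give small intestine as the tissue of both. Paneth cells are antimicrobial cells of small intestinal crypts, and traces of their abundant RNA were found in the RFP+ and RFP− libraries. Of 17 listed genes of a Paneth list, 13 stood at 0 in both LI libraries. The list summed to 0.437 and 0.391 FPKM in LI, against 116, 35.4 and 40.2 FPKM in RFP+, with 63.7, 442 and 103 FPKM in RFP−. Lyz1, the Paneth lysozyme, stood at 0.079 FPKM and 0 in LI, against 10.8, 5.07 and 4.54 FPKM in RFP+. Defa24, an α-defensin, was listed at 0 in both LI libraries and at 32.8, 12.8 and 8.47 FPKM in RFP+. Reads of α-defensin genes may be split among near-identical copies, so the sum is firmer than any single one. No LI library came near an RFP+ library for this list.

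Transcripts of small intestinal absorptive cells were mostly too low to test. Only 2 of 24 listed genes passed the filter and neither was called. Of these 24 enterocyte genes, 13 were at 0 in both LI libraries, while none was at 0 in all RFP+ libraries. Fabp1, a fatty acid binding protein, was listed at 0 in both LI libraries, against 2.78, 0.871 and 0.749 FPKM in RFP+. Apoa1, an apolipoprotein, was also at 0 in both, against 1.19, 0.779 and 0.383 FPKM in RFP+; neither gene was tested. The enterocyte list as a whole summed higher in LI (143 and 176 FPKM) than in RFP+ (89.9, 76.1 and 145 FPKM), and nearly all of the sum was Dgat1, a triglyceride synthesis gene, at 142 and 174 FPKM in LI and 76.3, 70.2 and 139 FPKM in RFP+ (adjusted p = 0.067, and 3.5e-04 without RFP+ replicate 3).

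Of 13 listed genes of a large intestine epithelium list, 4 stood at 0 in all RFP+ libraries, and these were found in LI. Car1, a carbonic anhydrase of colon epithelium and red blood cells, stood at 8.11 and 7.43 FPKM in LI and at 0 in all 3 RFP+ libraries. Haemoglobin genes of red blood cells were also higher in LI, as given below, and the part of such cells in the Car1 values was not tested. Mptx1, a mucosal pentraxin, stood at 1.83 and 4.33 FPKM in LI and at 0 in all 6 sorted libraries. Cyp2c55, a cytochrome of colon epithelium, stood at 0.451 and 0.512 FPKM in LI and at 0 in RFP+. Hoxb13, a homeobox gene of the hindgut, reached only 0.226 and 0.141 FPKM in LI, a level below the filter, and was at 0 in all 6 sorted libraries. The goblet cell mucin gene Muc2 stood at 1.09 and 0.691 FPKM in LI, against 0.141, 0.135 and 0.125 FPKM in RFP+, with 0.059, 0.968 and 0.355 FPKM in RFP−, where 1 library lay inside the LI range. Of 12 tested genes of the epithelial and goblet list that Muc2 belongs to, 1 was higher and 4 were lower, and 1 and 1 of the 7 that passed the filter through both groups (also 1 and 1 of 12 without either LI replicate). Of the 13 listed genes of the large intestine list, 4 could be tested, and 2 of these, Car1 and Mptx1, passed the filter only through LI. Without either LI replicate, 2 were tested, none was higher and 1 was lower. The lower gene was Car2, another carbonic anhydrase, at 97.4 and 94.5 FPKM in LI and 132, 158 and 149 FPKM in RFP+. B3galt5, also tested, stood at 14.0 and 14.3 FPKM in LI and 11.0, 15.0 and 13.3 FPKM in RFP+ (adjusted p = 0.49). The whole large intestine list summed lower in LI, to 123 and 122 FPKM, against 144, 173 and 163 FPKM in RFP+. Most of the sum in each of these libraries was Car2, so the sum does not speak for the other genes of the list. Because of these values the cells are called here by their title, LI, and no tissue is claimed for them.

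Other cell types were read in the same way. Haemoglobin genes were higher in LI: Hba-a1 stood at 17.4 and 18.4 FPKM in LI, against 1.97, 2.20 and 4.16 FPKM in RFP+, and Hbb-bs at 18.8 and 17.7 FPKM in LI, against 3.91, 2.33 and 7.24 FPKM in RFP+ (close copies may share reads). Of 7 tested genes of a myeloid and mast cell list, 1 was higher and 5 were lower, or 1 and 4 of the 5 that passed through both groups (1 and 2 without LI replicate 1, 1 and 1 without LI replicate 2), and the list summed to 43.6 and 40.2 FPKM in LI, against 57.6, 62.7 and 73.7 FPKM in RFP+. Its macrophage genes Csf1r and C1qa were at most 0.171 FPKM in all 8 libraries. Of 8 genes of a list of NKT cells, innate lymphoid cells and NK cells, 1 was higher and 4 were lower, or 1 and 2 of the 6 that passed through both groups, and the list, in which Fcer1g is the main gene, summed to 274.5 and 259 FPKM in LI, against 439.7, 481 and 449.5 FPKM in RFP+. Cd4, the helper coreceptor, was at 0.107 and 0.077 FPKM in LI, against 0.066, 0.017 and 0.088 FPKM in RFP+. Cd8b1, which marks CD8αβ T cells, was at 1.15 and 1.11 FPKM in LI, against 0.72, 0.928 and 1.16 FPKM in RFP+ (adjusted p = 0.41). Only 2 of 19 genes of a γδ T cell list were listed, at a sum of 0.085 and 0.132 FPKM in LI and at most 0.096 FPKM in RFP+; its constant-region genes were not analysed here. Cd3e, a chain of the T cell receptor (TCR) complex in αβ and γδ T cells alike, stood at 154 and 149 FPKM in LI and 157, 175 and 170 FPKM in RFP+ (adjusted p = 0.10). In bulk samples, fewer cells of a type and less RNA per cell cannot be told apart, and the part of other cells in the results below was not tested.

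LI cells stood with RFP+ cells, not RFP− cells, for Bcl6 and for the effector state genes Prdm1, Gzma, Gzmb and Prf1, and apart from both for Cd160. Bcl6 stood at 17.9 and 19.1 FPKM in LI, at 13.7, 14.2 and 18.0 FPKM in RFP+ and at 3.44, 3.30 and 3.59 FPKM in RFP−. LI replicate 1 fell inside the RFP+ range and LI replicate 2 above it, and the difference from RFP+ missed the threshold (log2 fold change 0.27 ± 0.11 SE, adjusted p = 0.11). It passed without RFP+ replicate 3 (adjusted p = 0.0034) and with limma-voom on the recovered reads (adjusted p = 0.046). Cd160, the surface receptor used beside RFP in the sort, behaved differently: it stood at 135 and 126 FPKM in LI, at 242, 240.3 and 231 FPKM in RFP+ and at 69.8, 61.9 and 66.3 FPKM in RFP−. LI thus lay between the sorted states without touching either, and was lower than RFP+ (log2 fold change -0.86 ± 0.05 SE, adjusted p = 1.5e-04).

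The genes with the largest contrast between the sorted states showed LI at the RFP+ end. Tcf7 stood at 261 and 272 FPKM in LI, at 227, 228 and 245 FPKM in RFP+ and at 6.46, 4.35 and 3.99 FPKM in RFP−. It was slightly higher in LI than in RFP+ (log2 fold change 0.19, adjusted p = 0.036), a call lost when any single library other than RFP+ replicate 3 was left out (adjusted p of 0.14 and 0.27 without LI replicates 1 and 2, and 0.10 and 0.078 without RFP+ replicates 1 and 2) and with all 8 libraries in 1 fit (adjusted p = 0.35). Id3, whose product blocks E proteins, stood at 34.8 and 31.9 FPKM in LI, at 28.1, 31.0 and 22.4 FPKM in RFP+ and at 1.12, 1.57 and 1.03 FPKM in RFP− (adjusted p = 0.11 against RFP+, and 0.047 without RFP+ replicate 2). Prdm1 stood at 0.728 and 0.660 FPKM in LI, at 0.826, 1.27 and 1.02 FPKM in RFP+ and at 21.4, 29.4 and 29.8 FPKM in RFP−. The Prdm1 values of LI lay just under those of RFP+ and far under those of RFP− (adjusted p = 0.14 against RFP+). Prdm1 passed the filter only through RFP+, and this p is from the fit with that filter.

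The cytotoxic granule genes were low in LI and RFP+ alike. Gzma, granzyme A, stood at 91.2 and 81.8 FPKM in LI, at 73.7, 90.5 and 166 FPKM in RFP+ and at 15579, 13193 and 13618 FPKM in RFP−. Gzmb, granzyme B, stood at 163 and 153 FPKM in LI, at 116, 137 and 267 FPKM in RFP+ and at 7302, 6209 and 5986 FPKM in RFP−. For both granzymes the LI values fell inside the RFP+ range, and neither difference passed (adjusted p = 0.54 for Gzma and 0.94 for Gzmb). RFP+ replicate 3 was the highest of its group for both: without it the fold change of Gzmb was 0.32 (adjusted p = 0.021), and that of Gzma 0.08 (adjusted p = 0.57), against -0.04 and -0.26 with it. Prf1, the perforin gene, stood at 5.59 and 4.28 FPKM in LI, 3.88, 5.91 and 3.14 FPKM in RFP+, with 39.3, 42.1 and 46.4 FPKM in RFP−.

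**Figure D1:**
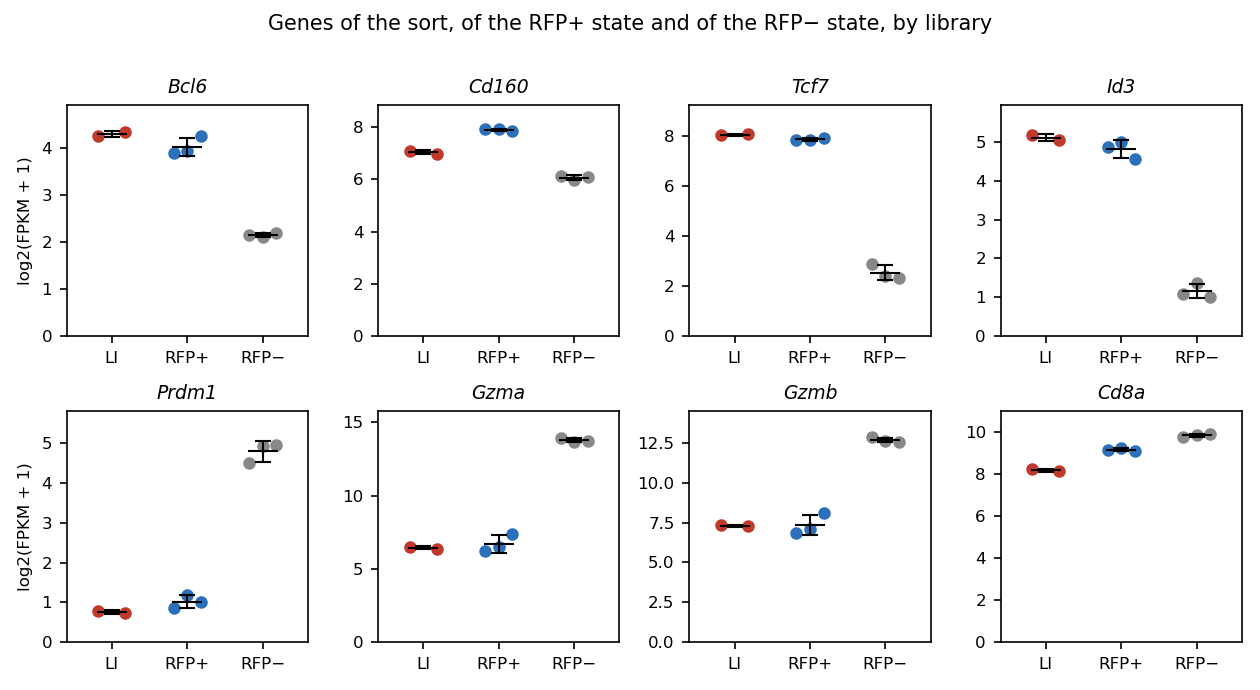
Levels of 8 genes as log2(FPKM + 1) in each library (points) of LI, RFP+ and RFP−, with the mean (horizontal bar) and SD (whiskers) of each group. LI sits with RFP+ for Bcl6, Tcf7, Id3, Prdm1, Gzma and Gzmb, between the sorted states for Cd160 (135 and 126 FPKM), and below both for Cd8a (297 and 281 FPKM).

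Across the genes that separate the sorted states, LI lay at or past RFP+ for most. Between RFP+ and RFP−, 193 of 9717 genes were called higher (1.99%) and 244 lower (2.51%) at 2-fold or more. For each of these 437 genes the position of LI was set on a scale where 0 is the RFP− mean and 1 the RFP+ mean. LI lay nearer to RFP+ in 413 genes (94.5%), and the median position was 1.125 (quartiles 0.906 and 1.397). Both LI libraries lay beyond every RFP+ library, on the side away from RFP−, for 217 genes, overlapped RFP+ for 114 and lay between the groups for 97. They overlapped RFP− for 7 and lay beyond it for 2. The median position was 1.2 over the genes higher in RFP+ and 1.06 over those lower. RFP+ enters both the choice of these genes and the scale, so the positions are a description, with no test.

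Not every gene that separates the sorted states placed LI at RFP+. Batf3, a basic leucine zipper factor, stood at 3.42 and 3.78 FPKM in LI, at 16.6, 13.4 and 15.2 FPKM in RFP+ and at 0.872, 0.564 and 0.180 FPKM in RFP−, a position of 0.471. Tgm2, a transglutaminase, stood at 12.3 and 11.8 FPKM in LI, at 28.0, 25.4 and 30.8 FPKM in RFP+ and under 1 FPKM in RFP− (position 0.722). LI lay between the sorted states for both and was lower than RFP+ (log2 fold change -1.80, adjusted p = 1.2e-04 for Batf3, and -1.15, adjusted p = 2.6e-04 for Tgm2). Emp3, a membrane protein gene, stood on the far side of RFP− at a position of -0.431, with 9.05 and 8.91 FPKM in LI, 2.31, 2.25 and 1.49 FPKM in RFP+, with 6.56, 4.99 and 6.40 FPKM in RFP−. The cytokine gene Csf2 (10.2 and 8.82 FPKM in LI; 14.4, 18.5 and 7.69 FPKM in RFP+), the RNA transporter gene Sidt1 and the receptor regulator Lrig1 did not pass against RFP+ (adjusted p of 0.36, 0.10 and 0.54) and had positions of 0.878, 1.07 and 0.976. Without RFP+ replicate 3, Csf2 and Sidt1 passed (adjusted p of 0.0043 and 0.013).

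**Figure D2:**
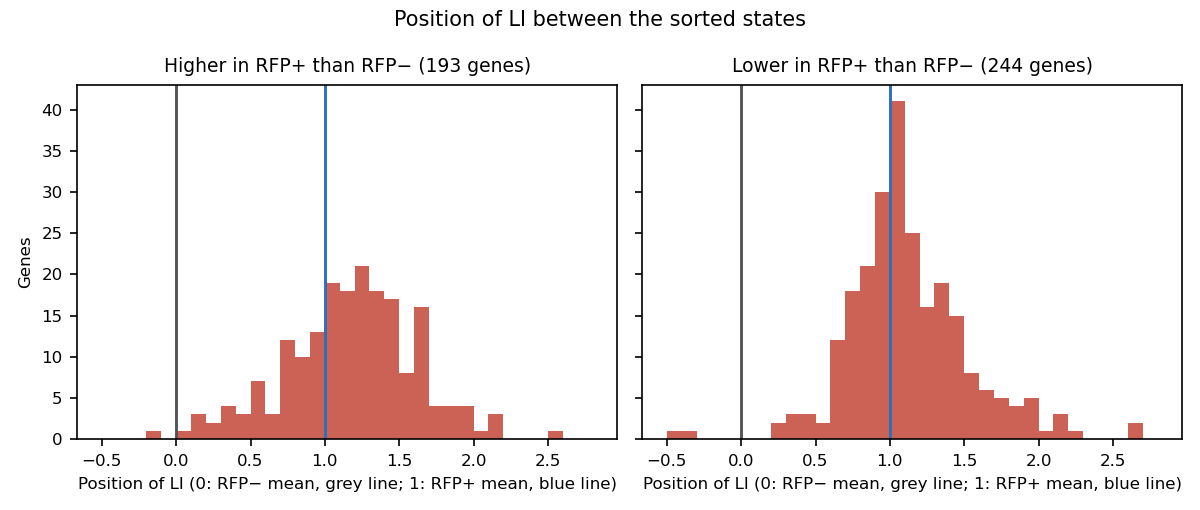
Number of genes by the position of LI, where 0 (grey line) is the RFP− mean and 1 (blue line) the RFP+ mean, for the 193 genes higher (left) and the 244 genes lower (right) in RFP+ than in RFP−. Most genes lie near or past 1, and 24 of 437 lie nearer to RFP−.

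Beyond the shared state, LI and RFP+ differed in many genes by small amounts and in few by large ones. Of 9830 genes, 1510 were called higher in LI (15.4%) and 1413 lower (14.4%), or 29.7% in all. At 2-fold or more there were 96 higher (0.977%) and 75 lower (0.763%). The groups did not overlap for 5850 genes (59.5%). Counts from all 5 libraries are to be read against these shares. Counts with 1 library left out come from other fits and are to be read against the totals of those fits. Without RFP+ replicate 1 these were 1130 higher and 1142 lower of 9794 genes, and without RFP+ replicate 3 they were 1774 and 1539 of 9786. The median log2 fold change of all genes was 0.01. The counts leaned on both LI libraries: 953 genes were called without LI replicate 1 and 718 without LI replicate 2, where the lone LI library is assumed to vary like RFP+. The 2-fold counts moved less, to 81 higher and 75 lower, and to 69 and 62.

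**Figure D3:**
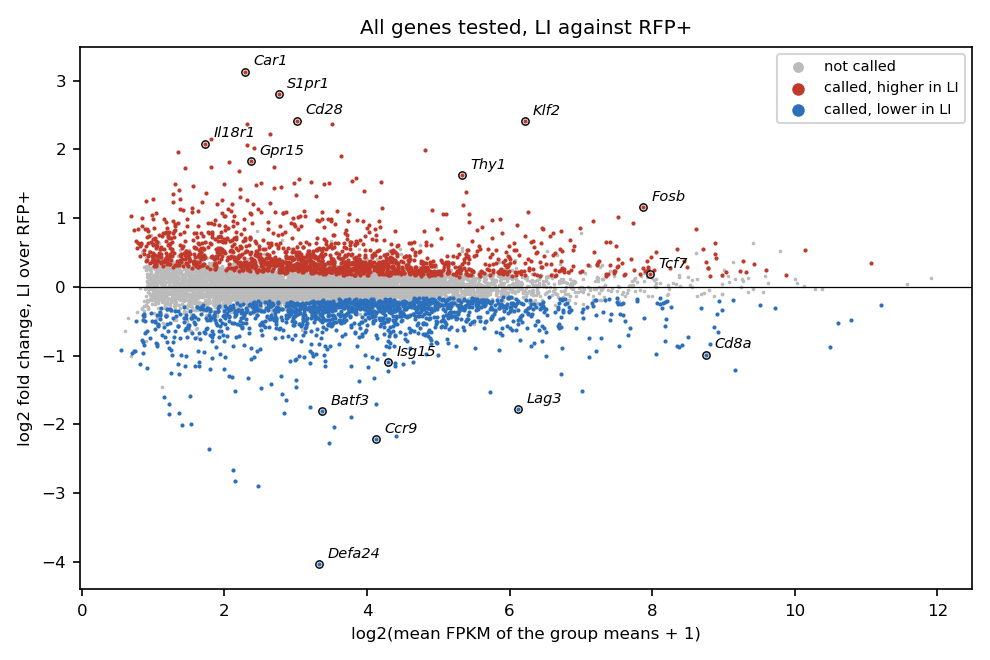
Log2 fold change, LI over RFP+, against the mean level of each of 9830 genes, with called genes in red (1510 higher) and blue (1413 lower). Car1, S1pr1, Cd28 and Klf2 lie highest among the labelled genes, and Defa24, Ccr9, Batf3 and Lag3 lowest.

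Ccr9 stood at 5.12 and 5.28 FPKM in LI, against 28.8, 28.7 and 26.1 FPKM in RFP+ (16.4, 13.1 and 15.0 FPKM in RFP−). LI was below all 6 sorted libraries, and fell against RFP+ by 2.22 on the log2 scale (SE 0.06, adjusted p = 1.3e-05). Gpr15 stood at 7.14 and 6.99 FPKM in LI, against 1.51, 1.26 and 1.05 FPKM in RFP+ (0.813, 0.110 and 0.562 FPKM in RFP−). Here LI was above all 6 (log2 fold change 1.83 ± 0.10 SE, adjusted p = 1.3e-04). The receptors for the small and the large intestine thus differed from RFP+ in opposite directions.

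S1pr1 stood at 10.2 and 11.5 FPKM in LI, against 0.899, 0.565 and 0.641 FPKM in RFP+ (at most 0.338 FPKM in RFP−). Klf2 stood at 121 and 125 FPKM in LI, against 28.2, 25.5 and 15.2 FPKM in RFP+ (4.46, 8.15 and 7.79 FPKM in RFP−). Both genes were far above every sorted library (log2 fold change 2.80, adjusted p = 5.9e-04 with no filter for S1pr1, which passed the filter only through LI, and 2.42, adjusted p = 5.9e-04 for Klf2). Cxcr4, a chemokine receptor of circulating and marrow T cells, stood at 18.4 and 20.5 FPKM in LI, against 5.91, 4.41 and 8.31 FPKM in RFP+ (log2 fold change 1.54, adjusted p = 0.0021).

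Integrin genes went in both directions. Itga1, the α1 chain, stood at 22.0 and 21.8 FPKM in LI, against 22.4, 25.7 and 24.7 FPKM in RFP+, and did not pass (adjusted p = 0.16). Itgae stood at 183 and 174 FPKM in LI, against 334, 349.9 and 370 FPKM in RFP+ (575, 559 and 559.7 FPKM in RFP−), lower than in any sorted library (log2 fold change -0.97, adjusted p = 1.5e-04). Itga4, the integrin α4 chain, stood at 23.9 and 25.3 FPKM in LI, against 10.8, 10.2 and 10.7 FPKM in RFP+, and rose by 1.15 on the log2 scale (adjusted p = 1.2e-04). Itgal, the αL chain of LFA-1, rose too (24.0 and 22.7 FPKM in LI; 14.8, 16.4 and 13.3 FPKM in RFP+). Itgad and Itgax, β2 integrin partners that RFP− cells express most, fell to 6.93 and 6.37 FPKM and to 3.28 and 3.14 FPKM in LI, against 31.5, 29.8 and 39.9 FPKM and 11.1, 13.1 and 15.5 FPKM in RFP+. Itgax also marks myeloid cells, whose list summed lower in LI, and the part of such cells was not tested. Jaml, a junctional adhesion molecule of IELs (53.3 and 49.3 FPKM in LI; 84.2, 87.7 and 92.8 FPKM in RFP+), and Rgs1, a brake on chemokine receptor signalling in tissue T cells (336 and 310.0 FPKM in LI; 591, 579 and 550.5 FPKM in RFP+), were lower. Cdh1, E-cadherin itself, was higher in LI, at 101 and 94.8 FPKM, against 59.7, 63.5 and 60.8 FPKM in RFP+.

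Over the whole homing and residency list, 13 of 34 tested genes rose and 12 fell, or 12 and 12 of 33 without S1pr1, with a median log2 fold change of -0.07 beside 0.01 over all genes. Without LI replicate 1 the counts were 9 and 8, and without LI replicate 2 they were 8 and 8. The haemoglobin, erythroid and stromal list, which moved with these genes, summed to 46.3 FPKM in both LI libraries, against 10.4, 10.2 and 17.6 FPKM in RFP+, and its part in the result was not tested.

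**Figure D4:**
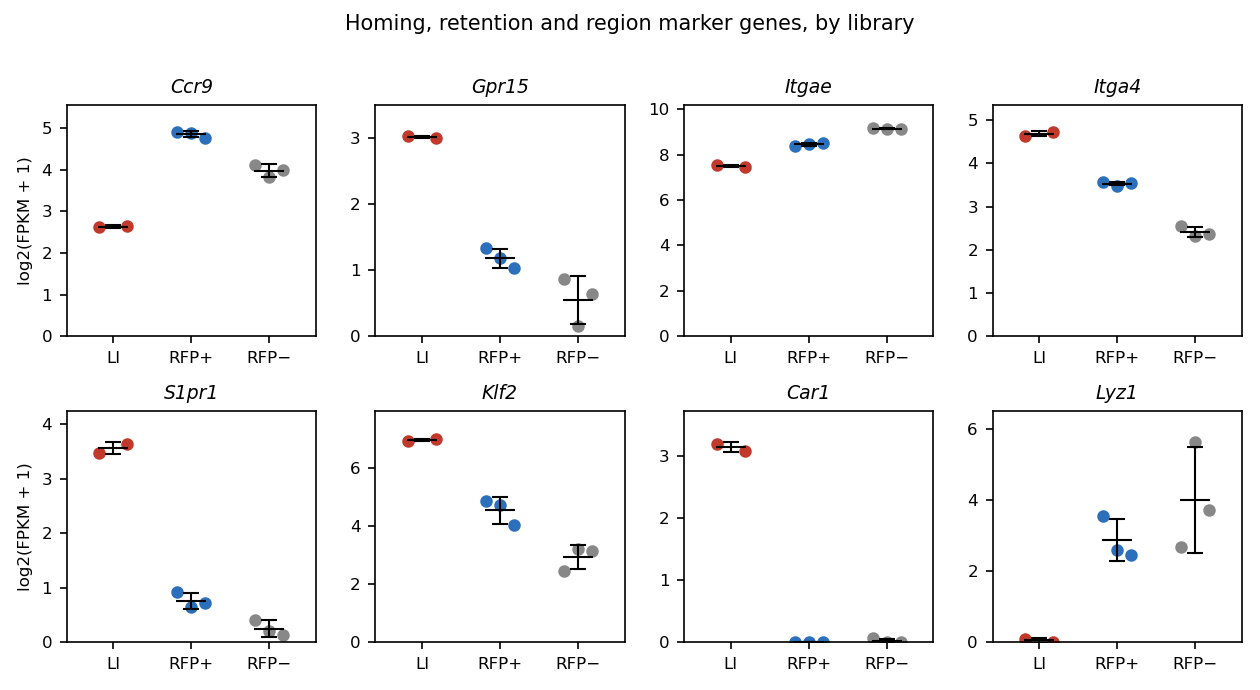
Levels of 8 genes as log2(FPKM + 1) in each library (points) of LI, RFP+ and RFP−, with the mean (horizontal bar) and SD (whiskers). Ccr9 and Itgae are lowest and Gpr15, Itga4, S1pr1 and Klf2 highest in LI, where Car1 is detected and Lyz1 is at or near 0.

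Among the coreceptor and costimulation genes, Cd8a was lower and Thy1, Cd2, Cd28 and Cd5 were higher in LI than in every sorted library, while Cd4 and Cd8b1 stood as given above. Cd8a stood at 297 and 281 FPKM in LI, against 566, 612 and 542 FPKM in RFP+ (871, 922 and 946 FPKM in RFP−), below every sorted library (log2 fold change -0.99, adjusted p = 2.0e-04). Thy1, a surface glycoprotein that many unconventional IELs lack, stood at 60.2 and 59.0 FPKM in LI, against 20.0, 19.6 and 16.5 FPKM in RFP+ and at most 2.65 FPKM in RFP− (log2 fold change 1.63, adjusted p = 1.2e-04). Cd2, an adhesion and costimulation receptor likewise scarce on natural IELs, stood at 58.6 and 60.8 FPKM in LI, against 22.1, 20.4 and 24.3 FPKM in RFP+ (log2 fold change 1.39, adjusted p = 1.3e-04). Cd28, the main costimulatory receptor, stood at 11.5 and 13.6 FPKM in LI, against 3.00, 0.562 and 1.57 FPKM in RFP+ (log2 fold change 2.42, adjusted p = 0.0029). Cd5, a brake on TCR signalling that conventional T cells carry, was at 1.85 and 1.45 FPKM in LI, against 0.339, 0.321 and 0.348 FPKM in RFP+ (log2 fold change 0.98, adjusted p = 0.0012 with no filter).

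On the list of genes of conventional CD4 and CD8αβ T cells, 5 of 10 tested rose and 1 fell. Cd5 and Cd6 passed the filter only through LI, and of the other 8 genes 3 rose and 1 fell (3 and 0 of 8 without LI replicate 1, 3 and 1 of 8 without LI replicate 2). On a TCR signalling list of 43 tested genes, 13 rose and 11 fell, or 10 and 10 of the 39 that passed through both groups, with a median of 0.05 over the 43 (7 and 5 of 40 without LI replicate 1, 6 and 4 of 40 without LI replicate 2). Cd3g, a TCR chain, fell (161 and 148 FPKM in LI; 241, 267 and 241 FPKM in RFP+). On the stem-like memory list, 10 of 19 genes were higher and 3 lower, median 0.32 (7 and 0 of 18 without LI replicate 1, 5 and 0 of 18 without LI replicate 2, 8 and 1 of 19 without RFP+ replicate 1). Without S1pr1, 9 of 18 were higher. Lef1, the partner of TCF1, stood at 4.42 and 4.64 FPKM in LI, against 1.5, 1.2 and 1.25 FPKM in RFP+ (log2 fold change 1.26, adjusted p = 2.7e-04). Satb1, a chromatin organiser, and Il7r, the interleukin-7 receptor chain, were higher by 0.88 and 0.76 on the log2 scale.

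Among transcription factors, 18 of 63 were higher and 12 lower, or 17 and 11 of the 60 that passed through both groups (11 and 4 of 62 without LI replicate 1, 10 and 4 of 62 without LI replicate 2). Klf3, a repressor of the Krüppel-like family, stood at 10.6 and 12.1 FPKM in LI, against 2.75, 2.65 and 4.19 FPKM in RFP+ (log2 fold change 1.57). Zfp683, which encodes HOBIT, a residency factor, rose by 0.70 to 4.05 and 4.13 FPKM in LI, against 2.41, 1.78 and 2.25 FPKM in RFP+. Id2, another E protein inhibitor, stood at 68.3 and 70.5 FPKM in LI and 103, 98.5 and 132 FPKM in RFP+, and Zbtb16, the PLZF factor of innate-like T cells, at 0.675 and 0.529 FPKM in LI and 1.71, 2.34 and 2.53 FPKM in RFP+. Id2 was lower (log2 fold change -0.66), a call lost without either LI replicate. Zbtb16 was lower too (log2 fold change -0.99), but it passed the filter only through RFP+, which by itself put at least 2 RFP+ libraries above LI. Runx3, Tbx21 and Ahr, factors of CD8 lineage and IEL upkeep, did not pass (adjusted p of 0.20, 0.079 and 0.29), although Tbx21 and Ahr did without RFP+ replicate 3 (adjusted p of 0.036 and 0.038).

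Of 24 tested cytokine and chemokine receptor genes, 10 were higher and 4 lower, median 0.23 (6 and 2 of 22 without LI replicate 1, 5 and 2 of 22 without LI replicate 2). Il18r1 and Il18rap passed the filter only through LI, and of the other 22 genes 8 were higher and 4 lower. Il18r1 and Il18rap, the chains of the interleukin-18 receptor, were low in the sorted cells. Il18r1 stood at 3.98 and 4.73 FPKM in LI, against 0.388, 0.186 and 0.209 FPKM in RFP+ (log2 fold change 2.09, adjusted p = 6.6e-04 with no filter), and Il18rap at 3.08 and 3.30 FPKM in LI, against 0.148, 0.224 and 0.456 FPKM in RFP+ (log2 fold change 1.72, adjusted p = 9.4e-04 with no filter). LI was above all 6 sorted libraries for both. Ifngr2, a chain of the interferon-γ receptor, stood at 7.96 and 8.97 FPKM in LI, against 2.69, 2.10 and 2.75 FPKM in RFP+ (log2 fold change 1.43). Il12rb1, the shared interleukin-12 and 23 receptor chain, was lower (16.4 and 16.2 FPKM in LI; 24.1, 22.4 and 22.7 FPKM in RFP+). Il2rb, the shared interleukin-2 and 15 receptor chain, stood at 267 and 285 FPKM in LI and 239, 236 and 289 FPKM in RFP+ (adjusted p = 0.36, and 0.014 without RFP+ replicate 3).

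The effector products split. Ifng, interferon γ, stood at 7.56 and 7.78 FPKM in LI, against 2.63, 3.13 and 2.47 FPKM in RFP+ (log2 fold change 1.22, adjusted p = 2.9e-04). In RFP− Ifng stood at 3.04, 7.78 and 8.76 FPKM, a range that held both LI values. Lta, lymphotoxin α, stood at 5.30 and 6.16 FPKM in LI, against 1.79, 2.24 and 0.727 FPKM in RFP+ (log2 fold change 1.43, adjusted p = 0.0059, and 0.062 without LI replicate 2). Nkg7, a granule protein gene, stood at 271 and 271 FPKM in LI, against 429, 454 and 463 FPKM in RFP+ (log2 fold change -0.72), and Srgn, the granule proteoglycan serglycin, at 163 and 165 FPKM in LI and 220, 217 and 216 FPKM in RFP+ (log2 fold change -0.41). Fgl2, a secreted fibrinogen-like protein, stood at 27.0 and 24.8 FPKM in LI, against 61.8, 91.8 and 78.8 FPKM in RFP+ (log2 fold change -1.53). Interferon γ and lymphotoxin were thus above RFP+ while these granule and secreted products were below it. Of the 20 cytotoxic effector genes that passed the filter through both groups, 2 were higher and 8 lower. On the cytotoxic effector list, 2 of 21 were higher and 8 lower, median -0.19 (2 and 4 without LI replicate 1, 1 and 4 without LI replicate 2, 4 and 11 of 20 without RFP+ replicate 3).

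NK receptor genes moved in both directions, the adaptors mostly down. Tyrobp, the adaptor DAP12, stood at 104 and 97.6 FPKM in LI, against 166, 209 and 205 FPKM in RFP+ (850.2, 768 and 733 FPKM in RFP−), and Fcer1g, another adaptor, at 239 and 224 FPKM in LI and 404, 444 and 411 FPKM in RFP+. Both were below all 6 sorted libraries (log2 fold change -0.93 and -0.85). Klrk1, the receptor NKG2D, stood at 9.18 and 10.7 FPKM in LI, against 4.74, 4.87 and 5.08 FPKM in RFP+, and Klrc2, an activating NKG2 receptor, at 10.2 and 10.8 FPKM in LI and 3.24, 3.28 and 4.18 FPKM in RFP+. Both rose (log2 fold change 0.89 and 1.34), and both were low in RFP− (under 1 FPKM). Klra6 and Klra3, Ly49 receptor genes, were higher by 0.68 and 0.96, though reads of close Klra copies may be split among them and Klra6 did not pass with all 8 libraries in 1 fit (adjusted p = 0.089). The NKT, innate lymphoid and NK cell list, which moved with these genes, holds Fcer1g itself, and the part of such cells was not tested. Gene length moved with the NK receptor result as well. Under 1000 exon bases, a range that holds Fcer1g, 4 of 5 genes were lower and 0 higher (median -0.595). From 1000 to under 2000 bases, 3 of 10 were lower and 5 higher (median 0.362). At 2000 bases or more, 7 of 14 were lower and 6 higher (median -0.152). The part of length was not tested here either. Of 29 genes tested, 11 rose and 14 fell, or 10 and 13 of the 27 that passed through both groups (6 and 11 of 28 without LI replicate 1, 7 and 11 of 28 without LI replicate 2). Lag3, an inhibitory receptor, fell by 1.77 on the log2 scale, to 32.2 and 28.8 FPKM in LI, against 97.7, 102 and 122 FPKM in RFP+ (217, 231 and 240.4 FPKM in RFP−).

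Interferon-stimulated genes shifted mostly one way. Of 46 tested, 36 were lower in LI and 1, Ly6c2, was higher, having passed the filter only through LI. Without Ly6c2, 36 of 45 were lower and none was higher. The median log2 fold change of the 46 was -0.47, beside 0.01 over all genes. The median lay between -0.52 and -0.45 as deposited and under 5 other scalings, and 26 of 45 were lower without LI replicate 1 and 24 of 45 without LI replicate 2. Many of these genes carry a short element, the interferon-stimulated response element (ISRE), in front of their start. Isg15, a ubiquitin-like modifier, stood at 11.5 FPKM in both LI libraries, against 24.9, 25.5 and 26.8 FPKM in RFP+, with 29.6, 20.9 and 21.3 FPKM in RFP−. LI was below every sorted library (log2 fold change -1.10, adjusted p = 1.2e-04).

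Other members followed. Oas1a, a sensor of double-stranded RNA, stood at 6.22 and 5.51 FPKM in LI, against 12.9, 13.6 and 13.9 FPKM in RFP+ (log2 fold change -1.08). Rtp4, a receptor transport protein gene, fell by 1.00 and Ifi27l2a, which varied more (7.91 and 9.30 FPKM in LI; 22.4, 17.8 and 30.7 FPKM in RFP+), by 1.33. Bst2, the viral tether tetherin, stood at 20.8 and 22.3 FPKM in LI, against 33.3, 34.0 and 28.2 FPKM in RFP+ (log2 fold change -0.54, adjusted p = 0.0047, and 0.050 without LI replicate 1, where the call was lost). Irf1, a factor that interferon γ induces and a member of the transcription factor list, not of this one, was higher. It stood at 155 and 169 FPKM in LI, against 91.8, 82.1 and 92.3 FPKM in RFP+ (log2 fold change 0.86, adjusted p = 3.3e-04). Ly6c2, a surface antigen of memory T cells, stood at 4.29 and 5.18 FPKM in LI, against 0.390, 0.201 and 0.281 FPKM in RFP+ (log2 fold change 2.15, adjusted p = 6.3e-04 with no filter). Members that share near-identical copies, such as the Gbp and Ifit genes, are less certain one by one.

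The promoters of 3 of the lower genes are shown because the core of that element can be read in them. The windows are RefSeq promoters of build GRCm38.p6, from 250 bases before to 50 bases after the gene's start, written 5′ to 3′ on the gene's strand with the ISRE core GAAANNGAAA, searched on both strands, in capitals. They lie at chr4:156200769-156201068 on the minus strand for Isg15, chr5:120907476-120907775 on the minus strand for Oas1a, and chr8:71537423-71537722 on the minus strand for Bst2. In each, overlapping matches run together.
Isg15: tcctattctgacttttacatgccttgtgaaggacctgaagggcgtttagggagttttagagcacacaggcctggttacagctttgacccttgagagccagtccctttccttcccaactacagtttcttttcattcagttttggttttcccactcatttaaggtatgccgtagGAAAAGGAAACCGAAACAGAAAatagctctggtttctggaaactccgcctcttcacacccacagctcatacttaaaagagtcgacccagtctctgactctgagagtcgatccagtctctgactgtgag
Oas1a: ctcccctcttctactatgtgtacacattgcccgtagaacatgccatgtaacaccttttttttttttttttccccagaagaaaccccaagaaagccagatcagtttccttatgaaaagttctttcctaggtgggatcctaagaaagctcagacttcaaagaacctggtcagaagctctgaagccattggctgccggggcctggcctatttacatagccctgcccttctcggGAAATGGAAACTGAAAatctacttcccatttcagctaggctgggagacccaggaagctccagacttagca
Bst2: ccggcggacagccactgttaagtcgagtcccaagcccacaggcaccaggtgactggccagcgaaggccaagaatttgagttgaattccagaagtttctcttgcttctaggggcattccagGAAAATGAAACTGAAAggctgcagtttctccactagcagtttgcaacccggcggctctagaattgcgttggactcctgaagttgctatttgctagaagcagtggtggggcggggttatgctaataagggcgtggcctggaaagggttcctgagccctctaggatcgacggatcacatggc
Isg15 held 3 overlapping matches, centred 73, 67 and 61 bases before the start, Oas1a held 2, at 15 and 9 bases, and Bst2 held 2, at 125 and 119 bases. Of all 32851 promoters of the table, 3.44% held the core. Promoters were at hand for 24 of the 36 lower genes, and 15 of these (62.5%) held it in at least 1 window, beside 6 of 9 (66.7%) of the list's genes that were not lower and 3.99% of all 27025 genes of the table. The share was close in the members that were lower and in those that were not, and a match is a string of letters, not a measured binding site.

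Of 51 tested immediate early and stress genes, 24 rose in LI, 2 fell and 25 did not pass, median 0.50 (21 and 0 without LI replicate 1, 19 and 1 without LI replicate 2, 28 and 6 without RFP+ replicate 3). Dusp2, a phosphatase induced by activation, stood at 44.0 and 43.5 FPKM in LI, against 11.7, 10.1 and 9.31 FPKM in RFP+, with 13.6, 23.6 and 24.8 FPKM in RFP− (log2 fold change 1.99, adjusted p = 1.0e-04). Fosb, an AP-1 component, stood at 348 and 295 FPKM in LI, against 156, 156 and 120.4 FPKM in RFP+ (log2 fold change 1.16). Nr4a1, a reporter of TCR signal strength, stood at 110.4 and 116 FPKM in LI, against 67.5, 63.7 and 57.2 FPKM in RFP+ (log2 fold change 0.84). LI was above RFP+ in every library for these 3 genes. Klf4, a Krüppel-like factor, stood at 47.1 and 43.5 FPKM in LI and 22.6, 18.2 and 23.4 FPKM in RFP+, and Hspb1, a small heat shock protein gene, at 15.8 and 13.2 FPKM in LI and 4.4, 6.47 and 3.04 FPKM in RFP+. The members of this list are also known to respond to tissue digestion and sorting, for which the labels give no times, and that part was not tested.

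Metabolic lists moved by less. No gene of oxidative phosphorylation encoded in the nucleus was higher, and 35 of 74 were lower, median -0.17 (16 lower without LI replicate 1, 10 without LI replicate 2, and 23 without RFP+ replicate 1, while 4 were higher and 36 lower without RFP+ replicate 3). Cox7a2, a subunit of cytochrome oxidase, stood at 56.7 and 53.0 FPKM in LI, against 99.5, 95.2 and 107 FPKM in RFP+ (56.3, 55.7 and 58.7 FPKM in RFP−). Gene length moved with this result: among all tested genes with under 1000 exon bases, 80 of 236 were lower and 20 higher (median -0.18), and of the oxidative phosphorylation genes 11 of 17 were lower below 1000 bases (median -0.35) and 8 of 30 at 2000 bases or more (median -0.09). The part of length was not tested. Among interferon-stimulated genes of 2000 bases or more, 29 of 37 were lower (median -0.46), and under 1000 bases 3 of 3 were lower (median -1.10). Cox6a2, a muscle-type oxidase subunit outside the list, fell to 3.38 and 2.29 FPKM in LI, against 14.9, 19.1 and 18.1 FPKM in RFP+ (log2 fold change -2.27).

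Of 31 genes of cholesterol synthesis, 16 were lower and 3 higher, median -0.34 (6 and 2 of 30 without LI replicate 1, 7 and 2 of 30 without LI replicate 2). Srebf2, the master factor of the pathway, stood at 65.2 and 65.4 FPKM in LI, against 81.8, 83.0 and 83.7 FPKM in RFP+, and Fdft1, squalene synthase, at 7.52 and 7.50 FPKM in LI and 10.4, 10.9 and 11.9 FPKM in RFP+. Of the 3 that rose, Abca1 exports cholesterol and Scap is the escort of the factor's precursor (log2 fold change 0.83, adjusted p = 8.1e-04 with no filter for Abca1, which passed the filter only through LI, and 0.48 for Scap). Without Abca1, 16 of 30 were lower and 2 higher. Of 24 glycolysis genes, 12 were higher and 1 lower, median 0.21 (3 and 1 without either LI replicate, and 7 and 1 without RFP+ replicate 1). Eno1, enolase, stood at 60.0 and 61.5 FPKM in LI, against 41.4, 40.7 and 40.9 FPKM in RFP+, and Slc2a1, the glucose transporter GLUT1, at 16.2 and 16.4 FPKM in LI, against 11.0, 9.20 and 10.8 FPKM in RFP+.

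Of 37 cell cycle genes, 16 were higher and 1 lower, median 0.28 (6 and 1 of 36 without LI replicate 1, 5 and 1 of 36 without LI replicate 2). Cdt1, a replication licensing factor, stood at 15.3 and 16.0 FPKM in LI, against 9.51, 9.68 and 9.54 FPKM in RFP+ (log2 fold change 0.65), and Pcna, the replication clamp, at 97.1 and 94.8 FPKM in LI and 68.6, 66.1 and 68.7 FPKM in RFP+ (log2 fold change 0.49). Hmgb2, a chromatin protein gene often linked to cycling, went the other way (62.9 and 63.3 FPKM in LI, against 110, 98.6 and 122 FPKM in RFP+). Without the 1 cell cycle gene that passed the filter only through LI, 16 of 36 were higher and 1 lower.

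**Figure D5:**
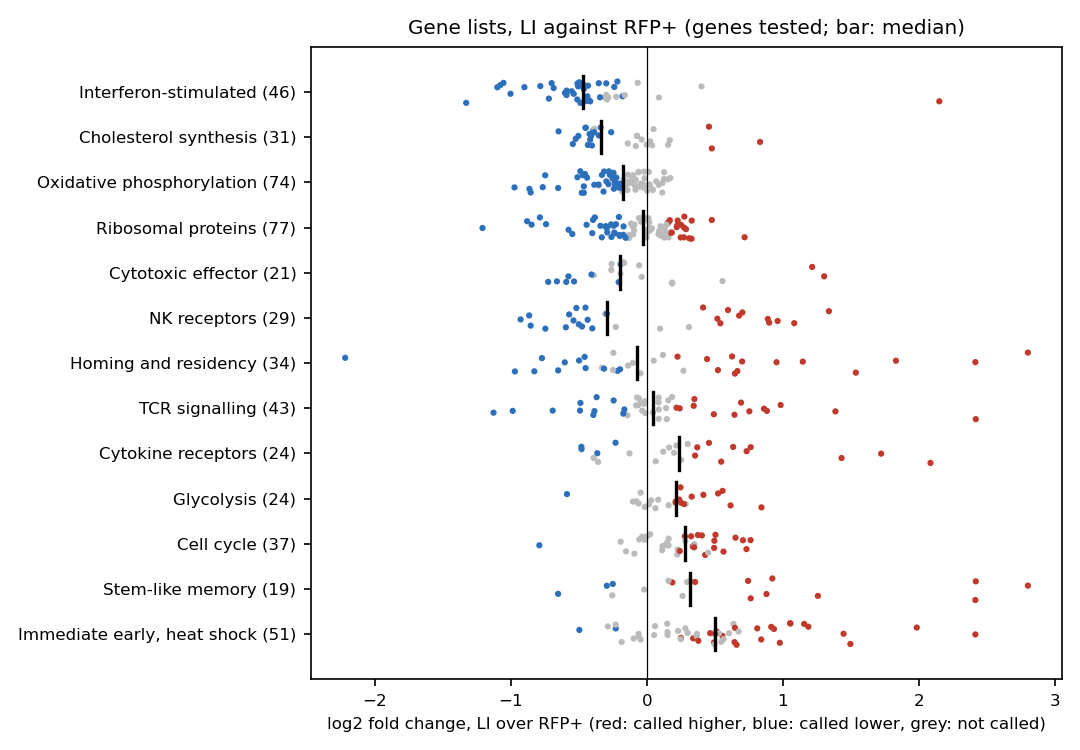
Log2 fold change, LI over RFP+, of every tested gene (points) of 13 lists, with the number tested after each name and the median as a black bar. Interferon-stimulated (median -0.47) and cholesterol synthesis genes (-0.34) lie mostly to the left, and immediate early genes (0.50) mostly to the right.

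LI was not simply an average of the sorted states. Both LI libraries lay above all 6 sorted libraries for 2194 of 9830 genes, by over 1 on the log2 scale for 43, and below all 6 for 2014 genes, by over 1 for 34. Besides Klf2, Thy1, Cd2 and Hba-a1, the genes farthest above included Rgcc, a regulator of the cell cycle, at 25.4 and 27.0 FPKM in LI, against 9.02, 8.24 and 8.06 FPKM in RFP+ and at most 3.26 FPKM in RFP−. Those farthest below included, besides the Paneth genes, Itgad and Cox6a2, the elastase gene Cela1, at 3.13 and 3.93 FPKM in LI, against 14.7, 17.6 and 20.9 FPKM in RFP+, with 72.9, 79.2 and 78.5 FPKM in RFP−. Plek, an adaptor of leukocyte activation, had the same order of groups and stood at 4.95 and 4.56 FPKM in LI, against 17.3, 19.8 and 24.5 FPKM in RFP+, with 67.4, 63.8 and 62.2 FPKM in RFP−. For Cela1 and Plek, LI continued past RFP+ on the side away from RFP−, with positions of 1.99 and 2.17.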

How the data were processed

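RNA was extracted with MagZol reagent from sorted cells, per the labels' protocols. The submitters' processing notes list DESeq2, RSEM, featureCounts, Subread, Bowtie2, Trim Galore (version 0.4.4) and the mm10 build, giving none of them a role. The values used here were deposited by the authors as FPKM, in 1 file per library. The files of the other 12 libraries were not used here.

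Values were taken as log2(FPKM + 1), kept where at least 2 of the 5 libraries reached 1 FPKM, and tested with limma 3.58.1 (lmFit and eBayes with a trend, R 4.3.3), two-sided, with Benjamini-Hochberg adjustment over all genes. RFP+ against RFP− was fitted in the same way, with 3 or more of 6 libraries at 1 FPKM. Low values were whole multiples of 1 read, divided by exon length, in 97.1% to 97.4% of cases (tolerance 0.02 of a read), which gave the depth. Of the listed symbols, 98.8% matched the annotation of GRCm38 used for lengths. limma was tested on simulated reads at the depths of this comparison, with 200 genes changed and 1 fixed dispersion (variance beyond counting error) of 0.01. It recovered 56% of these genes at 1.5-fold, 99% at 2-fold and 100% at 4-fold, and 0.88%, 3.88% and 6.98% of the calls were unchanged genes. The real libraries need not vary in this way, and 2923 genes were called in them, so these shares cannot be carried over to the real calls. The position of LI for a gene is (LI − RFP−)/(RFP+ − RFP−) over group means on the log2 scale.

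The part studied, the gene lists and the rules were chosen with earlier results of these data known. Genes are named by a rule: 34 fixed genes; the 12 largest called changes each way at a mean of at least 5 FPKM; the called members of each list with the smallest p, at most 4; the 8 genes that part the sorted states most each way; the 6 farthest outside all sorted libraries each way; and the leading genes of each marker list. Named after their values were seen were Hoxb13, Cyp2c55, Muc2, Apoa1, Fosb, Rtp4, Bst2, Fdft1, Rgs1, Jaml, Itgal, Klf4, Hspb1, Ifi27l2a, Klra3, Id2, Lta, Csf1r and C1qa. Alternatives were other pseudocounts, filters and scalings, all 8 libraries in 1 fit, a block by replicate number, leaving out each library and, added after the data were seen, limma-voom on the recovered reads.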

Additional observations from a re-analysis of the deposited data

How the results depend on the processing

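The count of 2923 called genes stayed within 1.5 times under every alternative scaling, pseudocount, filter and fit that kept all 5 libraries, from 2358 to 3514. With 1 library left out, the total ranged from 718 to 3313, the higher genes from 298 to 1774 and the lower genes from 420 to 1539. The counts at 2-fold depended on the scale: 202 higher and 130 lower at a pseudocount of 0.1, 23 and 19 at a pseudocount of 5, 61 and 50 at a filter of 5 FPKM, 188 and 119 with equal totals, and 215 and 140 with limma-voom on the recovered reads, an alternative chosen after seeing the data. With 1 library left out they ranged from 69 to 113 and from 62 to 85. Scaling by TMM factors, coded by hand, or by centring on well-expressed genes moved the split of calls to 1289 higher and 1629 lower and to 1786 and 1243. The share of genes nearer to RFP+ ranged from 93.1% to 97%.

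Libraries of the same replicate number did not deviate together (correlation of deviations 0.029 for number 1 and -0.201 for number 2). With only 2 LI libraries their deviations mirror each other, so this check cannot tell whether mice or batches were shared. A replicate block, in which RFP+ replicate 3 has no partner and drops out of the comparison, gave 1693 higher and 1469 lower genes. Under that block and without RFP+ replicate 3 the sign turned for Gzma (0.079) and Gzmb (0.32, adjusted p = 0.0090 with the block). With 1 library left out, Gzma ranged from -0.501 to 0.079 and Gzmb from -0.279 to 0.32. Depth limits genes near 1 FPKM, and in the simulated reads 56% of 1.5-fold changes were recovered. The causes were not tested.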

Other observations

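Lists not described above moved in part. Genes of amino acid and other solute carriers were higher in 9 of 17 with 1 lower, median 0.24 (4 and 0 without LI replicate 1, 3 and 0 without LI replicate 2). Slc16a1, a lactate transporter, stood at 9.37 and 9.47 FPKM in LI, against 4.68, 3.93 and 5.99 FPKM in RFP+, and Slc38a2, a glutamine transporter, at 76.4 and 74.2 FPKM in LI, against 51.6, 48.3 and 48.7 FPKM in RFP+. Of 11 genes of bile acid, vitamin and xenobiotic sensing, 3 rose and 3 fell (1 and 1 of 10 without either LI replicate, 5 and 3 of 11 without RFP+ replicate 3). Without Dhrs3, which passed the filter only through LI, 2 of 10 rose and 3 fell. Rara, the retinoic acid receptor α, stood at 23.3 and 22.2 FPKM in LI, against 11.5, 12.2 and 10.1 FPKM in RFP+ and at most 3.44 FPKM in RFP− (log2 fold change 0.95, adjusted p = 4.0e-04). Dhrs3, a retinal reductase that retinoic acid induces, stood at 1.32 and 1.86 FPKM in LI, against 0.274, 0.40 and 0.627 FPKM in RFP+.

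Of 36 survival genes, 3 rose and 11 fell (2 and 4 without LI replicate 1, 1 and 3 without LI replicate 2, and 3 and 6 without RFP+ replicate 1). Bcl2a1b and Bcl2a1d, near-identical copies of a survival gene that may share reads, were lower by 1.00 and 1.02 on the log2 scale, and Mcl1, another survival factor, was higher by 0.36 (170 and 168 FPKM in LI, against 125, 133 and 137 FPKM in RFP+). Of the survival list, 2 tested genes had under 1000 exon bases, and both were lower (median -1.01). Ribosomal protein genes split, 19 higher and 29 lower of 77, with a median of -0.02 that crossed 0 between libraries left out (-0.07 without LI replicate 1, 0.02 without LI replicate 2). Rps27, one of the shortest, stood at 363 and 326 FPKM in LI, against 858, 824 and 713 FPKM in RFP+, and of the ribosomal genes under 1000 exon bases 6 of 10 were lower, against 12 of 35 at 2000 bases or more.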
